A study of Oryctolagus cuniculus with 36 samples.

Results

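The 250 most liver-enriched genes of a rabbit series were described across both liver lobes after portal vein embolization, with and without obeticholic acid. They were chosen from the 9419 genes that the deposited tables list. Each library was scaled to 1000000 listed reads (levels on this scale are given as CPM), and T was the log2 ratio of the mean level plus 1 in the 24 liver libraries to the mean level plus 1 in the 12 ileum libraries. The rule took the 250 genes of highest T, all with T of at least 3, after 9 genes had been left out, 2 of which rank within the highest 250. The T of the chosen genes ran from 3.59 to 10.84 with a median of 6.57. At the edge of the rule, the last gene inside, ENSOCUG00000004218, stood at 127.8 CPM in liver and 9.68 CPM in ileum, and the first outside, ENSOCUG00000006861, at 32.9 and 1.82 CPM. Both round to a T of 3.59. The liver-to-ileum difference chose these genes and is given as description only. The rule weighted all liver libraries equally and did not compare the liver groups that are tested here. Its mean pools both lobes, so a gene may have entered only through the lobe where it was high. That can add to the lobe differences counted below. ENSOCUG00000009032, ENSOCUG00000004393 and ENSOCUG00000015780, named below for the largest falls, reached a T of 3 only through the non-embolized lobe. The named largest rises, ENSOCUG00000013137, ENSOCUG00000007279 and ENSOCUG00000000178, reached it on the level of their lower lobe too.

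All rabbits were wild type, received obeticholic acid or vehicle beforehand and then underwent portal vein embolization, so no liver without embolization enters the comparisons. The 4 liver groups, 6 libraries each, were the embolized cranial lobe after obeticholic acid, the embolized cranial lobe after vehicle, the non-embolized caudal lobe after obeticholic acid and the non-embolized caudal lobe after vehicle. The labels call the embolized lobe atrophic and the non-embolized lobe hypertrophic. Lobe position and embolization cannot be told apart, because the embolized lobe was the cranial one in every library. The sources used here state no dose, timing, sex or age. They do not say whether the libraries of a group are different rabbits, and p-values therefore cover only library-to-library spread, part of which may be technical.

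Portal vein embolization closes the portal branches that feed some lobes. The deprived lobes shrink, and the lobes that receive the diverted blood grow. Obeticholic acid is a bile acid derivative that activates FXR, a nuclear receptor of hepatocytes and of the ileal epithelium that restrains bile acid synthesis. Genes that are active in liver and nearly silent in gut typically encode plasma proteins and enzymes of bile acid, amino acid, nitrogen and drug metabolism, most of them made by hepatocytes. Which of these functions the 250 genes hold was not established, since the files pair no ID with a symbol and 0 of the 9419 IDs matched the RefSeq gene table used here. Genes therefore appear under their IDs, hepatocyte markers could not be looked up, and no sequence is shown.

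Reads per library recovered from the deposited values ran from 12 to 27.3 megareads in liver, with group means of 14.7 and 13.8 megareads in the embolized lobe after obeticholic acid and vehicle, and 19.5 and 20.3 megareads in the non-embolized lobe. All 250 genes passed the filter on low values, their mean normalized counts in liver were 206 or more, and 249 of them had reads in all 24 liver libraries. In ileum 127 of the 250 averaged under 1 CPM, 37 averaged at least 10 CPM, and 2 had no read in any library. For 243 genes the lowest liver library lay above the highest ileum library.

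The 250 genes made up a large part of the listed liver reads. Their share was 32.4 ± 2.29% in the embolized lobe after obeticholic acid, 34.8 ± 2.01% in the embolized lobe after vehicle, 29.9 ± 2.28% in the non-embolized lobe after obeticholic acid and 34 ± 1.61% in the non-embolized lobe after vehicle (SD, n = 6 each). In ileum it was 0.160 ± 0.0402% after obeticholic acid and 0.196 ± 0.0860% after vehicle. No test was made on this share, because it is a score over chosen genes. In the non-embolized lobe the libraries ran from 26.6 to 32.7% after obeticholic acid and from 32 to 36% after vehicle, so the groups overlapped. In the embolized lobe they ran from 28.6 to 34.5% after obeticholic acid and from 32.2 to 37% after vehicle, again with overlap. In bulk tissue, fewer cells of a type and less RNA per cell cannot be told apart.

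**Figure D1:**
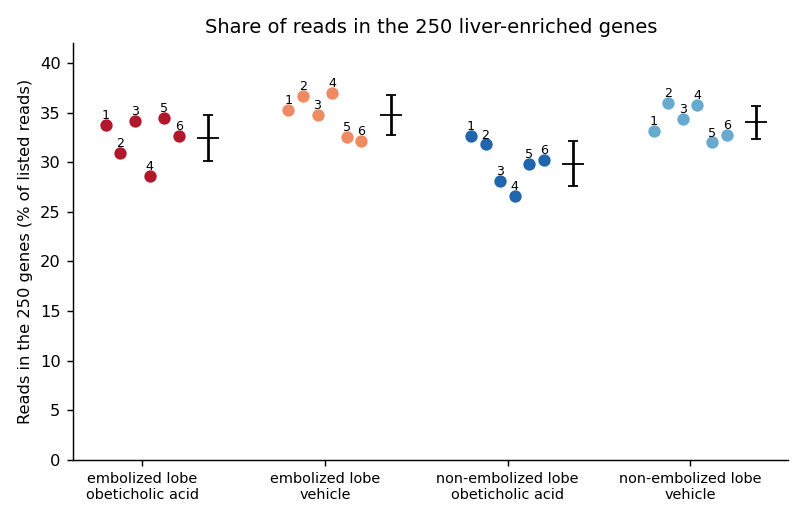
Percent of listed reads in the 250 liver-enriched genes (y axis, from 0) in each of 6 libraries of the 4 liver groups (x axis); numbers are replicate numbers, and the bar at the right of each group is its mean ± SD. The non-embolized lobe after obeticholic acid had the lowest group mean, 29.9%, and the embolized lobe after vehicle the highest, 34.8%.

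Reads were concentrated in few of the genes. The 4 genes with most reads held 23.8% of the reads of all 250, the 10 with most reads 42.4% and the 50 with most reads 81.8%. Because a gene's reads also depend on its transcript length, which was not known, these shares are not compared as expression levels. The 10 genes with most reads took 14.5 ± 1.65% of listed reads in the embolized lobe after obeticholic acid and 15.6 ± 1.28% after vehicle, against 11.5 ± 1.03% and 14.1 ± 1.25% in the non-embolized lobe after obeticholic acid and vehicle (SD, n = 6). The remaining 240 took 18 ± 0.677%, 19.2 ± 1.01%, 18.4 ± 1.43% and 19.9 ± 0.835% in the same 4 groups.

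Of the 4 genes with most reads, 1 was called in 1 comparison and the others in none. ENSOCUG00000007617 took 2.72 ± 0.550% of reads in the embolized lobe after obeticholic acid, 2.33 ± 0.197% in the embolized lobe after vehicle, 2.36 ± 0.302% in the non-embolized lobe after obeticholic acid and 2.90 ± 0.438% in the non-embolized lobe after vehicle (SD, n = 6). None of the 4 pairwise comparisons called it, with limma adjusted p between 0.522 and 0.931. ENSOCUG00000011687, which also had the highest T, took 2.45 ± 0.333%, 2.60 ± 0.246%, 1.61 ± 0.584% and 2.42 ± 0.298% in these groups. After obeticholic acid it was higher in the embolized lobe than in the other lobe (log2 fold change 0.61 ± 0.24 SE, limma adjusted p = 0.048), with overlapping groups. This call was lost in 22 of 40 other settings, where the log2 fold change lay between 0.45 and 0.78 and the highest adjusted p was 0.301, and 17 of the 24 single-library omissions were among them. ENSOCUG00000002057 and ENSOCUG00000010524 were called in no comparison, with log2 fold changes between -0.15 and 0.15 for ENSOCUG00000002057 and between -0.26 and 0.38 for ENSOCUG00000010524.

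The embolized lobe was first compared with the non-embolized lobe after vehicle, which asks how liver-enriched genes differ between the deprived and the growing lobe. Of the 250 genes, 55 were lower in the embolized lobe, 40 were higher and 155 did not pass. That is 38% called, where 25.5% of all 8653 genes tested were called. Lower genes made up 22% of the 250 against 13.9% of all genes, and higher genes 16% against 11.7%. Counting only changes of at least 2-fold, 27 were lower and 17 higher, or 10.8% and 6.8% against 5.85% and 5.48% of all genes. Groups did not overlap in 28 lower and 16 higher genes, or 11.2% and 6.4% against 5.94% and 3.55%. Among the 6940 genes with higher counts kept by a stricter filter, 28% were called, and 38.8% of the 250. Lower genes made up 15.9% of these 6940 and 22% of the 250, and higher genes 12.1% and 16.8%.

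The median log2 fold change of the 250 genes in this comparison was 0.07, beside 0.03 over all genes tested. Their quartiles were -0.53 and 0.49, beside -0.32 and 0.43 for all genes, so the liver-enriched genes were spread wider to both sides. Without the embolized vehicle library 5 the median was 0.19, and 55 genes were higher and 49 lower. That is 22% and 19.6% of the 250, where 10.9% of all genes were higher and 13% lower.

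ENSOCUG00000009032 had the largest fall. Its normalized counts ran from 2.95 to 60.8 with a median of 30.2 in the embolized lobe after vehicle, and from 396 to 1163 with a median of 715 in the non-embolized lobe after vehicle. Every embolized library lay below every non-embolized one (log2 fold change -4.80 ± 0.48 SE, limma adjusted p = 2.88e-07). ENSOCUG00000004393 ran from 17.7 to 315 with a median of 100.1 in the embolized lobe, and from 949.9 to 1531 with a median of 1106 in the non-embolized lobe. These groups did not overlap either (-3.42 ± 0.51 SE, limma adjusted p = 2.64e-05).

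The largest rise was that of ENSOCUG00000013137. It stood at 1282 to 4243 normalized counts with a median of 2049.6 in the embolized lobe after vehicle, and at 216 to 472 with a median of 319 in the non-embolized lobe after vehicle. The groups did not overlap (log2 fold change 2.74 ± 0.25 SE, limma adjusted p = 7.09e-08). ENSOCUG00000007279 stood at 2758 to 10617 with a median of 6078 in the embolized lobe, and at 931 to 2513 with a median of 1823 in the non-embolized lobe. Its lowest embolized library, number 5, lay just above the highest non-embolized one (1.86 ± 0.27 SE, limma adjusted p = 2.21e-05).

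The same lobes were then compared after obeticholic acid. Here 57 of the 250 genes were lower in the embolized lobe, 42 were higher and 151 did not pass, which is 39.6% called, where 32.1% of all genes were called. Lower genes were 22.8% of the 250 against 15.6% of all genes, and higher genes 16.8% against 16.5%. Under the stricter filter 34.1% of all genes were called, 18.5% lower and 15.6% higher, so the excess of lower genes was smaller. The shares of the 250 stayed at 22.8% lower and 16.8% higher. With each replicate number as a block within its treatment, 24% of the 250 were higher against 19.4% of all genes, and 28.8% were lower against 18.9%. Changes of at least 2-fold numbered 30 lower and 22 higher, or 12% and 8.8% against 5.24% and 9.36%. Groups did not overlap in 35 lower and 12 higher genes, or 14% and 4.8% against 7.47% and 7% of all genes. The median log2 fold change of the 250 was -0.07, beside 0.01 over all genes. The balance of higher and lower genes was not stable. It was 58 higher and 52 lower with equal totals, where 15.9% of all genes were higher and 11.7% lower. It was 55 and 52 without embolized obeticholic acid 4, with a median of 0.04, where 16.5% of all genes were higher and 15.5% lower. It was 50 and 44 within replicates 1 to 3, where 12.9% of all genes were higher and 11.9% lower. With sample quality weights it was 58 and 57, where 18.6% and 17.4% were.

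ENSOCUG00000009032 had the largest fall here too. It ran from 39.3 to 209.8 normalized counts with a median of 119.8 in the embolized lobe after obeticholic acid, and from 697 to 1367 with a median of 1171 in the non-embolized lobe after obeticholic acid. The groups did not overlap (log2 fold change -3.30 ± 0.48 SE, limma adjusted p = 1.59e-05). ENSOCUG00000015780 ran from 14.5 to 68.9 with a median of 46.3 in the embolized lobe, and from 51.3 to 1251 with a median of 214 in the non-embolized lobe. These groups overlapped, and the non-embolized maximum was the single library 5 (-2.43 ± 0.55 SE, limma adjusted p = 0.00166, and -1.92 without that library).

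ENSOCUG00000000178 had the largest rise after obeticholic acid. It stood at 498 to 2881 normalized counts with a median of 2290.2 in the embolized lobe, and at 183 to 417 with a median of 217 in the non-embolized lobe. The groups did not overlap (log2 fold change 2.96 ± 0.40 SE, limma adjusted p = 7.78e-06). After vehicle the same gene stood at 615 to 1784 in the embolized and 217 to 1159 in the non-embolized lobe and did not pass (0.90 ± 0.40 SE, limma adjusted p = 0.0961). The difference between these lobe responses was 2.05 ± 0.56 on the log2 scale and did not pass either (limma adjusted p = 0.561, against an adjusted p of 0.0308 with DESeq2). ENSOCUG00000013137 again lay higher in every embolized library, at 1945 to 3819 with a median of 2459, against 239 to 443 with a median of 371 in the non-embolized lobe (2.83 ± 0.25 SE, limma adjusted p = 3.92e-08).

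**Figure D2:**
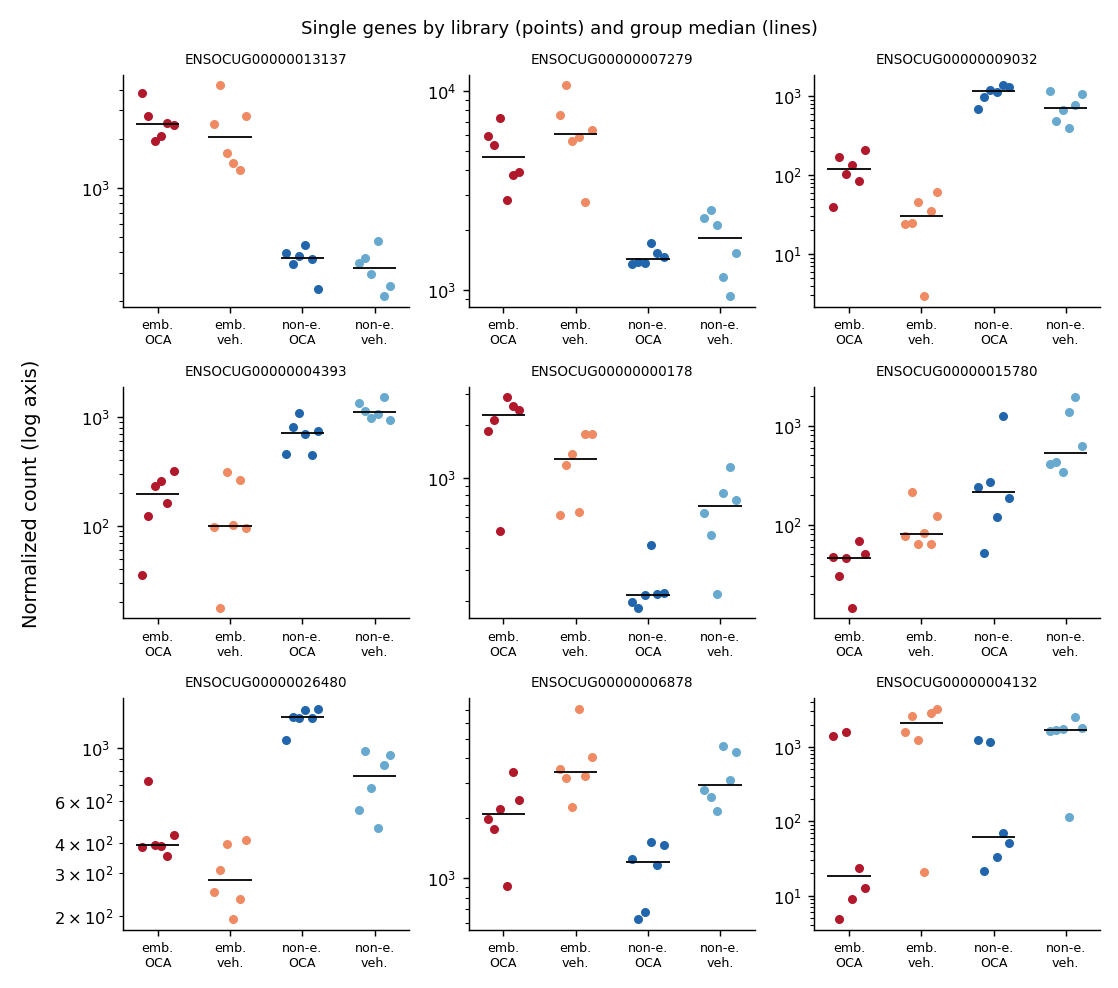
Normalized counts (log axis) of single genes in the 6 libraries (points) of each liver group, with the group median as a line; emb. and non-e. are the embolized and the non-embolized lobe, OCA is obeticholic acid and veh. vehicle. ENSOCUG00000013137 was higher and ENSOCUG00000009032 lower in every embolized library of its treatment, while ENSOCUG00000004132 split into high and low libraries within each group.

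The lobe comparisons of both treatments share no library, although both lobes may come from the same rabbits. Of the 250 genes, 45 were lower in the embolized lobe in both comparisons, 29 were higher in both, 46 were called in one of them and 130 in neither. No gene was called in opposite directions. Over all genes tested, 10.2% were lower in both and 7.96% higher in both, beside 18% and 11.6% of the 250. The log2 fold changes correlated at r = 0.89 over the 250 genes and at r = 0.84 over all genes tested, as a description, since genes are no independent replicates.

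The 45 genes that were lower in both took 1.58 ± 0.199% of reads in the embolized and 3.72 ± 0.301% in the non-embolized lobe after obeticholic acid, and 1.51 ± 0.307% and 3.66 ± 0.153% after vehicle (SD, n = 6). The 29 genes that were higher in both took 4.03 ± 0.428% in the embolized and 1.87 ± 0.375% in the non-embolized lobe after obeticholic acid, and 4.40 ± 0.541% and 2.47 ± 0.382% after vehicle. These shares describe called genes and are no separate test. The 130 genes called in neither held 20.5 ± 1.62% of reads in the embolized and 19.1 ± 1.17% in the non-embolized lobe after obeticholic acid, and 21.8 ± 1.26% and 21.4 ± 1.11% after vehicle. Of the 10 genes with most reads, 7 were among these 130, 1 was among those higher in both and 0 among those lower in both.

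**Figure D3:**
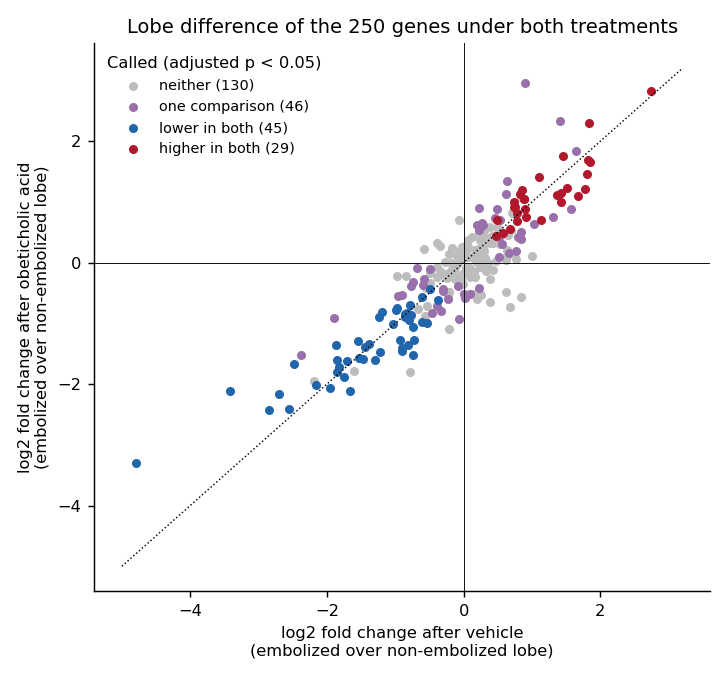
Log2 fold change of the embolized over the non-embolized lobe after vehicle (x axis) and after obeticholic acid (y axis) for the 250 liver-enriched genes (points), coloured by whether each was called; the dotted line marks equal values. The 45 genes lower in both and the 29 higher in both lie along it, and none was called in opposite directions.

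The genes were split into tiers of near equal size by liver level and by T. In the tier of lowest liver level, 12.2 to 131 CPM, 24 of 83 genes were lower in the embolized lobe and 9 higher after vehicle, with a median log2 fold change of -0.09. In the middle tier 17 were lower and 19 higher, and in the highest tier, 561 to 25798 CPM, 14 of 84 were lower and 12 higher. Over all genes tested 13.9% were lower and 11.7% higher after vehicle, or 15.9% and 12.1% under the stricter filter. The highest tier lay near these shares. The lowest tier lay well above them for lower genes and not for higher genes, and the middle tier lay above them in both directions. By T, the counts after vehicle were 21 lower and 12 higher in the lowest tier, 17 and 17 in the middle and 17 and 11 in the highest. Among the 127 genes under 1 CPM in ileum 32 were lower and 15 higher after vehicle, and among the other 123 there were 23 and 25. No test was made between these subsets. Genes of low liver level may have entered only through the lobe where they were high. Whether this choice adds to the excess of lower genes in the lowest liver tier was not tested.

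The next comparison set obeticholic acid against vehicle within the growing, non-embolized lobe. Of the 250 genes 1 rose, 1 fell and 248 did not pass, which is 0.8% called, near the 0.624% of all genes tested. By direction, 0.4% of the 250 rose and 0.4% fell, against 0.37% and 0.254% of all genes. Yet most of the 250 lay on the lower side. The log2 fold change was below 0 in 176 of them, or 70.4%, beside 49.8% of all genes, and its median was -0.17, beside 0.00. At an unadjusted p under 0.05, 44 were lower and 17 higher, or 17.6% and 6.8%, where all genes gave 7.11% and 6.92%. Groups did not overlap in 12 lower and 3 higher genes, or 4.8% and 1.2%, against 0.89% and 0.832% of all genes.

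The difference in the share of reads took in many genes, but most of it lay in the 10 with most reads. These 10 took 11.5% of reads after obeticholic acid against 14.1% after vehicle in the non-embolized lobe. The remaining 240 took 18.4% against 19.9%. The 250 genes together took 4.15 points less of the reads after obeticholic acid than after vehicle in the non-embolized lobe (difference -4.15 points), with 174 genes at a lower share. ENSOCUG00000011687 gave the largest part, with 1.61% of reads after obeticholic acid against 2.42% after vehicle, a difference of -0.81 points. It did not pass on its own (log2 fold change -0.65 ± 0.24 SE, limma adjusted p = 0.19). ENSOCUG00000007617 followed with 2.36% against 2.90%, a difference of -0.54 points (limma adjusted p = 0.67).

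The 1 gene that fell was ENSOCUG00000006878. It ran from 623 to 1517 normalized counts with a median of 1209.6 in the non-embolized lobe after obeticholic acid, and from 2178 to 4578 with a median of 2939 after vehicle. Every treated library lay below every vehicle library (log2 fold change -1.57 ± 0.29 SE, limma adjusted p = 0.0184). The call was lost without vehicle 6 (limma adjusted p = 0.0552) and within replicates 4 to 6 (0.13). In the embolized lobe it ran from 916 to 3395 with a median of 2101 after obeticholic acid, and from 2283 to 7078 with a median of 3409 after vehicle, and did not pass (-0.89 ± 0.29 SE, limma adjusted p = 0.203). After obeticholic acid the gene was higher in the embolized lobe than in the other, with overlapping groups (0.90 ± 0.29 SE, limma adjusted p = 0.0196). This call was lost in 4 of 40 other settings, which were replicates 4 to 6 alone and the omission of non-embolized obeticholic acid 2 or 3 or embolized obeticholic acid 5, with adjusted p up to 0.459.

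The 1 gene that rose was ENSOCUG00000026480. It ran from 1079.6 to 1457 normalized counts with a median of 1341 in the non-embolized lobe after obeticholic acid, and from 462 to 969 with a median of 765 after vehicle, with no overlap (log2 fold change 0.89 ± 0.21 SE, limma adjusted p = 0.0433). In the embolized lobe it ran from 355 to 731 after obeticholic acid and from 193 to 412 after vehicle and did not pass (0.59 ± 0.21 SE, limma adjusted p = 0.235). The gene was lower in the embolized lobe than in the other lobe as well, with log2 fold changes of -1.61 ± 0.21 SE after obeticholic acid and -1.30 ± 0.21 SE after vehicle (limma adjusted p = 4.86e-06 and 5.57e-05). The call for obeticholic acid was lost in 16 of 39 other settings, with log2 fold changes between 0.77 and 0.98. Among them were equal totals (limma adjusted p = 0.118), edgeR (0.0591) and the omission of 9 of the 12 libraries compared, which were vehicle 1, 4, 5 and 6 and obeticholic acid 2, 3, 4, 5 and 6.

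The count of called genes in the non-embolized lobe varied with the libraries kept and the method. It was 5 without vehicle 3 and 0 without vehicle 6, where 1.29% and 0.104% of all genes were called. It was 1 without vehicle 1, 4 or 5, where 0.416%, 0.208% and 0.139% of all genes were called. It was also 1 without obeticholic acid 2, 4 or 6, where 0.705%, 0.116% and 0.3% were. Libraries of the other lobe enter through the shared spread. Omitting embolized vehicle 4 or embolized obeticholic acid 2 or 3 gave 4, where 1.1%, 0.659% and 0.67% of all genes were called. Omitting embolized vehicle 1 or embolized obeticholic acid 6 gave 1, where 0.462% and 0.52% were. DESeq2 on the recovered reads called 15 of the 250, 10 lower and 5 higher, where it called 3.03% of all genes, and limma with sample quality weights called 19, 14 lower and 5 higher, where 4.6% of all genes were called.

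In the embolized lobe most of the 250 genes again lay on the lower side after obeticholic acid. None passed (limma-trend, smallest adjusted p = 0.0522, that of ENSOCUG00000009032), where 0.196% of all genes were called. At an unadjusted p under 0.05, 54 were lower and 8 higher, or 21.6% and 3.2%, beside 6.19% and 6.51% of all genes. Groups overlapped in all 250 genes, while 0.312% of all genes lay lower and 0.15% higher without overlap. The log2 fold change was below 0 in 179 genes, or 71.6%, beside 47% of all genes. Its median was -0.25, beside 0.02 over all genes, and it lay 0.27 below the median of all genes with equal totals too, where the median of all genes was 0.15 and that of the 250 was -0.11. With edgeR 1 of the 250 was called, and with DESeq2 6, 4 lower and 2 higher, where DESeq2 called 0.959% of all genes.

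ENSOCUG00000009032, the gene that fell most in the embolized lobe, ran from 39.3 to 209.8 normalized counts there after obeticholic acid, and from 2.95 to 60.8 after vehicle. The groups overlapped, and the difference missed the threshold (log2 fold change 2.12 ± 0.48 SE, limma adjusted p = 0.0522). It passed in 10 of 39 other settings, among them edgeR, DESeq2, a pseudocount of 5, the replicate block and the omission of embolized vehicle 3, 5 or 6 or embolized obeticholic acid 1. The same gene in the non-embolized lobe stood at 697 to 1367 after obeticholic acid and at 396 to 1163 after vehicle (0.63 ± 0.48 SE, limma adjusted p = 0.64). The difference between the lobes in this response was 1.49 ± 0.67 and did not pass (limma adjusted p = 0.683).

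**Figure D4:**
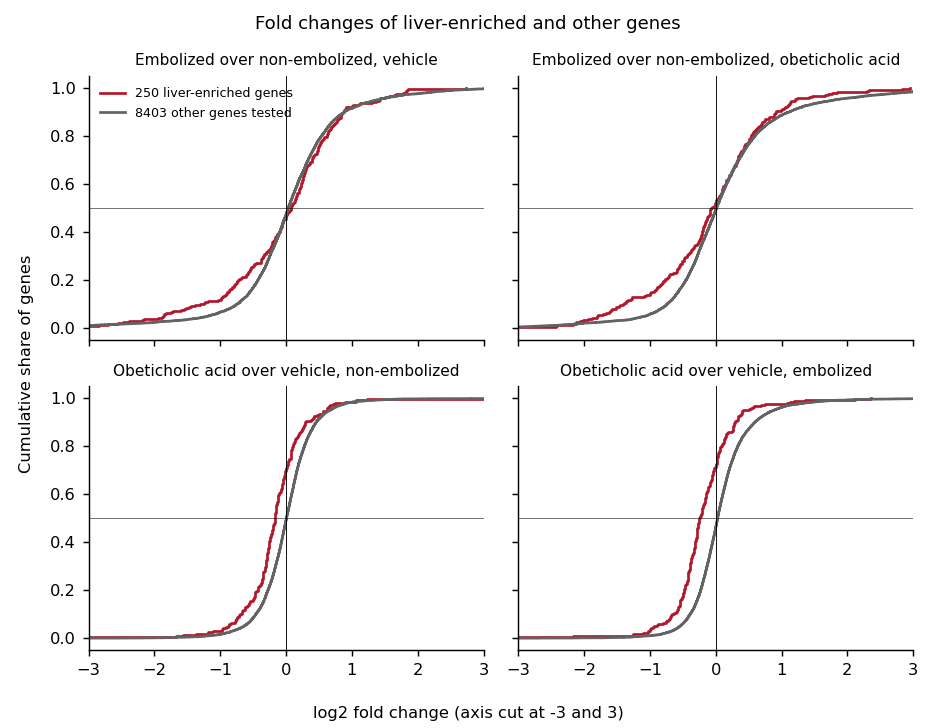
Cumulative share of genes (y axis) by log2 fold change (x axis, shown from -3 to 3) for the 250 liver-enriched genes (red) and the 8403 other genes tested (grey), in 4 comparisons. After vehicle the red curve of the lobe comparison is wider to both sides, with quartiles of -0.53 and 0.49, and after obeticholic acid it is wider to the lower side, with a lower quartile of -0.56. For obeticholic acid over vehicle it is shifted to lower values, with medians of -0.17 (non-embolized lobe) and -0.25 (embolized lobe).

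The obeticholic acid responses of both lobes share no library but may share rabbits, as same-numbered lobes may come from 1 animal. They are therefore not independent, and the counts that follow are a description that lends neither response support. Of the 250 genes 146, or 58.4%, had a log2 fold change below 0 in both lobes, beside 27.4% of all genes. There were 41, or 16.4%, above 0 in both, beside 30.6% of all genes, and 63 of opposite sign. Across the 250 genes the responses correlated at r = 0.65 with a Spearman rho of 0.45, and across all genes at r = 0.37 with a rho of 0.26. No gene of the 250 was called in both lobes. The 45 genes that were lower in the embolized lobe under both treatments did not share the lower side, with a median response of -0.03 for the non-embolized lobe and 0.02 for the other. The 29 that were higher in both had medians of -0.28 and -0.26 in the same order of lobes, and the 130 called in neither had -0.19 and -0.27.

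A test of the interaction addressed whether both lobes responded alike to obeticholic acid. It called none of the 250 genes and 0% of all genes (limma-trend, smallest adjusted p among the 250 of 0.561). At an unadjusted p under 0.05 there were 15 of the 250, or 6%, beside 7.29% of all genes. With edgeR 0 of the 250 were called and with DESeq2 2, where DESeq2 called 0.0578% of all genes.

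On the scale of the deposited normalized counts, the liver-enriched genes were low as a group in 1 embolized library of each treatment. The deviation of each gene from the median of the other 5 libraries of its group was taken on the log2 scale. Its median over the 250 genes was -0.49 in the embolized library obeticholic acid 4 and -0.51 in embolized vehicle 5, where the medians over all genes were 0.06 and 0.04. The other embolized libraries lay between -0.21 and 0.24, and the non-embolized ones between -0.14 and 0.19. In obeticholic acid 4, 49 of the 250 genes lay over 2-fold below their group and 2 over 2-fold above, and in vehicle 5 there were 28 and 3. Among all genes the balance was the other way, with 388 below and 984 above in obeticholic acid 4, and 264 below and 1164 above in vehicle 5. By share of listed reads in the 250 genes, embolized obeticholic acid 4 was the lowest of its group at 28.6%. Embolized vehicle 5 held 32.6%, above embolized vehicle 6 at 32.2%, so it was not the lowest of its group on that scale.

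The obeticholic acid comparison of the embolized lobe was repeated without each library. Without embolized vehicle 5 the median log2 fold change of the 250 genes was -0.33, and 17 of them were called, 15 lower and 2 higher, where 3.44% of all genes were called. Without embolized obeticholic acid 4 the median was -0.15 and no gene of the 250 was called, beside 0.15% of all genes. The count was 4 without embolized obeticholic acid 3 and 3 without embolized vehicle 6, where 0.451% and 0.324% of all genes were called. It was 1 without embolized vehicle 3, embolized vehicle 4 or embolized obeticholic acid 1, where 0.439%, 0.127% and 0.15% were. In the 12 fits that left out an embolized library, the only ones that can move it, the median lay between -0.33 and -0.15. In the non-embolized lobe it lay between -0.20 and -0.15 in the 12 fits without 1 of that lobe's libraries. Within replicates 1 to 3 and within replicates 4 to 6, which form separate runs of library numbers, the medians were -0.19 and -0.23 for the embolized lobe and -0.19 and -0.16 for the non-embolized lobe. Limma with sample quality weights called 6 of the 250 in the embolized lobe, 4 lower and 2 higher, where 1.21% of all genes were called.

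**Figure D5:**
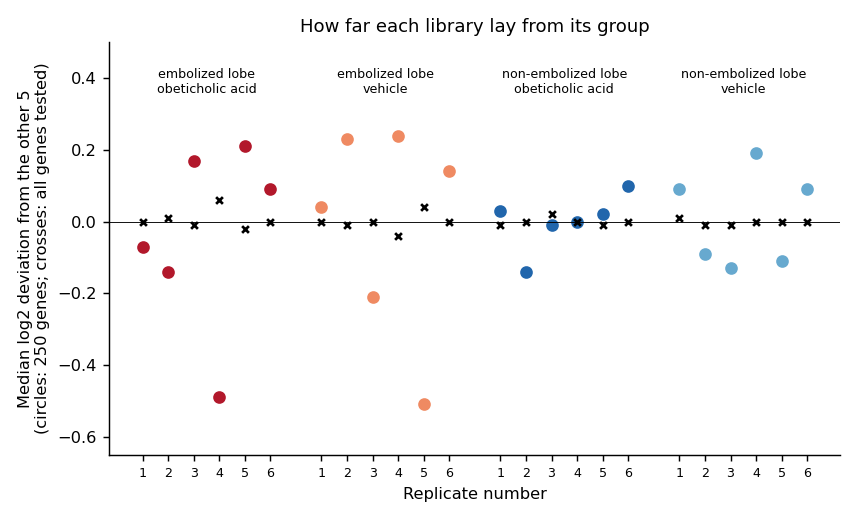
Median log2 deviation of normalized counts from the other 5 libraries of the group (y axis) for each liver library (x axis, replicate number), over the 250 liver-enriched genes (circles) and over all genes tested (crosses). Embolized obeticholic acid 4 and embolized vehicle 5 lie lowest for the 250 genes, at -0.49 and -0.51, while the crosses lie between -0.04 and 0.06.

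Within groups, the spread of the 250 genes was close to that of all genes. The median SD on the log2 scale was 0.43 in the embolized lobe after obeticholic acid, 0.47 in the embolized lobe after vehicle, 0.33 in the non-embolized lobe after obeticholic acid and 0.33 in the non-embolized lobe after vehicle. Over all genes tested it was 0.40, 0.44, 0.38 and 0.34 in these groups. ENSOCUG00000008807 had the smallest spread within groups, with log2 SDs of 0.12, 0.12, 0.13 and 0.19. It was lower in the embolized lobe after obeticholic acid, at 1089 to 1382 normalized counts with a median of 1209, against 1445 to 1822 with a median of 1609.7 in the non-embolized lobe, without overlap (log2 fold change -0.41 ± 0.10 SE, limma adjusted p = 0.00264). That call was lost with equal totals and within either run of 3 replicates, with adjusted p up to 0.125. After vehicle it stood at 1382 to 1781 in the embolized and 1179 to 1678 in the non-embolized lobe and did not pass (0.22 ± 0.10 SE, limma adjusted p = 0.111). The difference between these lobe differences was -0.63 ± 0.14 and did not pass (limma adjusted p = 0.561, against an adjusted p of 0.0205 with DESeq2).

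ENSOCUG00000004132 had the largest spread within groups. In the embolized lobe after obeticholic acid it stood at 1420 and 1596 normalized counts in libraries 1 and 3, and at 4.84, 8.99, 23.8 and 12.7 in libraries 2, 4, 5 and 6. In the non-embolized lobe after obeticholic acid the same numbers were high, 1244 in library 1 and 1160 in library 3, and libraries 2, 4, 5 and 6 stood at 21.3, 33.7, 70.4 and 51.3. After vehicle only library 4 was low in either lobe, at 20.6 in the embolized and 115 in the non-embolized lobe. The other vehicle libraries ran from 1239 to 3261 in the embolized and from 1638 to 2516 in the non-embolized lobe. Its log2 fold change for obeticholic acid over vehicle was -4.07 ± 1.44 in the embolized and -3.19 ± 1.44 in the non-embolized lobe and passed in neither (limma adjusted p = 0.244 and 0.313).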

How the data were processed

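Strand-specific libraries of total RNA were sequenced in read pairs of 150 bases, according to the labels' protocols. STAR, RSEM and DESeq2 are named in the submitters' processing notes; the sources used here state no versions, genome build, annotation or transcript selection. The deposited tables, 1 for liver and 1 for ileum, hold a normalized signal from the authors. It behaves as gene counts divided by a size factor per library: 100% of values were whole multiples of their library's smallest step within 0.01, and reads were recovered on this basis. T compares tables that were normalized separately, after scaling each library to the same total. Tests stayed within the liver table.

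Limma-trend (limma 3.58.1, R 4.3.3) was run on log2(normalized count + 1). It tested 8653 genes, those that reached 10 in 6 or more of 24 liver libraries, with a mean for each of 4 groups and one common spread. Calls used a Benjamini-Hochberg adjusted p below 0.05 over all genes tested. Fold changes on this scale understate changes of low genes. Alternatives included edgeR 4.0.16 and DESeq2 1.42.0 on recovered reads. Among 90 library pairs within groups the smallest chi-square per degree of freedom was 38.7, so none was a near copy of another.

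Named genes are up to 2 rises and 2 falls per comparison, the largest among called genes averaging at least 50 normalized counts, the 4 with most reads, the highest T, the genes at the edge of the rule and the smallest and largest spread. The 250 genes and the lists were chosen with earlier results of these data known. Marker and pathway lists could not be used without symbols. Deviations of same-numbered vehicle lobes correlated at 0.14 to 0.525, over 0.1 in 6 of 6 pairs, while no label states a pairing. Between obeticholic acid lobes 5 of 6 pairs exceeded 0.1. Same-numbered libraries of different treatments, which cannot be 1 rabbit, exceeded 0.1 in 4 of 6 pairs in the non-embolized lobe (-0.317 to 0.539). In the embolized lobe 2 of 6 such pairs did (-0.428 to 0.239). A correlation over 0.1 is therefore not specific to shared rabbits. The same number correlated best for 4 of 6 embolized and 4 of 6 non-embolized vehicle libraries between lobes. After obeticholic acid it did for 5 and 3. Between treatments it did for 2 and 2 in the non-embolized lobe, and for 1 and 0 in the embolized lobe (obeticholic acid, vehicle). ENSOCUG00000004132 was high and low in the same numbers of both lobes. Whether same-numbered lobes come from 1 rabbit was not tested, and pairing was not established. The lobe tests reported have no block, and fits with one are alternatives.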

Additional observations from a re-analysis of the deposited data

Results flagged for a closer look

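In 64 groups of 6 libraries, the normalized counts of the genes named above were searched for a library far from the others, and 8 groups held one. The rule would flag about 1 in 20 groups of normally distributed values. These genes were picked partly for extreme values, so the number flagged cannot be set against that rate. ENSOCUG00000000178 stood at 417 normalized counts in non-embolized obeticholic acid 4, where the other 5 libraries ran from 183 to 222. ENSOCUG00000015780 stood at 1251 in non-embolized obeticholic acid 5, with the others at 51.3 to 270.2. ENSOCUG00000026480 was high at 731 in embolized obeticholic acid 2, with the others at 355 to 433, and low at 1079.6 in non-embolized obeticholic acid 1, with the others at 1332 to 1457. ENSOCUG00000006878 stood at 7078 in embolized vehicle 4, with the others at 2283 to 4054. ENSOCUG00000007617 stood at 437061 in non-embolized obeticholic acid 6, with the others at 368547 to 385787. ENSOCUG00000002057 stood at 142707 in embolized obeticholic acid 4, with the others at 256415 to 311663. ENSOCUG00000004132 stood at 115 in non-embolized vehicle 4, with the others at 1638 to 2516.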

How the results depend on the processing

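Between lobes the counts of called genes kept within 1.5 times of the reported ones in the 24 fits that left out 1 library. After vehicle these gave 33 to 55 higher and 46 to 60 lower genes, and after obeticholic acid 37 to 55 higher and 52 to 60 lower. Counts of higher and lower genes within replicates 1 to 3 were 32 and 35 after vehicle and 50 and 44 after obeticholic acid, and within replicates 4 to 6 they were 15 and 28 after vehicle and 12 and 28 after obeticholic acid; these fits have fewer libraries. Of all genes, replicates 1 to 3 gave 5.43% higher and 7.6% lower after vehicle, and 12.9% and 11.9% after obeticholic acid. Replicates 4 to 6 gave 2.22% and 4.35% after vehicle, and 5.06% and 5.11% after obeticholic acid. Sample quality weights gave 62 higher genes after vehicle, where 19.8% of all genes were higher. Taking only the 150 genes of highest T, which is fewer genes by construction, gave 24 higher and 31 lower after vehicle, and 26 and 34 after obeticholic acid. Of all genes, 11.7% were higher and 13.9% lower after vehicle, and 16.5% and 15.6% after obeticholic acid. For obeticholic acid in the non-embolized lobe 1 of the 150 was called, beside 0.624% of all genes.

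For obeticholic acid over vehicle in the non-embolized lobe, leaving out 1 library gave 0 to 5 called genes. Equal totals gave 4, no variance trend 1 and only the groups compared 6, where 0.335%, 0.451% and 0.37% of all genes were called. A term separating replicates 1 to 3 from 4 to 6 gave 6, beside 1.31% of all genes. Replicates 1 to 3 alone gave 1 and replicates 4 to 6 alone 0, beside 0.0578% and 0.3%. Sample quality weights gave 19, edgeR 1 and DESeq2 15, beside 4.6%, 0.485% and 3.03%. In the embolized lobe leaving out 1 library gave 0 to 17. Equal totals, equal upper quartiles, a pseudocount of 5 and edgeR each gave 1, beside 0.162%, 0.243%, 0.312% and 0.196% of all genes. The 300 genes with T of at least 3 gave 1 as well, beside 0.196% of all genes. The same term for runs of replicates gave 3, sample quality weights 6 and DESeq2 6, beside 0.439%, 1.21% and 0.959%. DESeq2 called 2 genes for the interaction, and no other setting called any of the 250. The cause of these shifts was not tested. The replicate block gave 9 called genes for the non-embolized lobe, 3 for the other, when obeticholic acid was set against vehicle, where numbers are not read as pairs. That is 3.6% and 1.2% of the 250 beside 1.47% and 0.347% of all genes. Between vehicle lobes it gave 45 higher and 56 lower genes, or 18% and 22.4% of the 250 beside 12.8% and 14.8% of all genes. Between vehicle lobes it moved no count by over 1.5 times. A block for each number within each treatment, chosen after seeing the data, gave 55 higher and 68 lower genes after vehicle and 60 and 72 after obeticholic acid, or 49.2% and 52.8% of the 250 called beside 32.3% and 38.3% of all genes. T without ileum vehicle 6 and obeticholic acid 1 kept 239 of the 250 genes. Of 34 changes of named genes that were recomputed, 18 of them called, 0 turned their sign under these settings. Depth limits single libraries of ENSOCUG00000009032, with 2.95 normalized counts at the lowest, and of ENSOCUG00000004132, with 4.84.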
